A study of Homo sapiens with 4 samples.

Results

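Matrix metalloproteinases (MMPs), their tissue inhibitors (TIMPs) and the membrane sheddases ADAM10 and ADAM17 were followed at the mRNA level in AGS cells carrying an shRNA against MFAP2. The set held 10 of the 47251 genes listed, picked by symbol from gene families: MMP1, MMP7, MMP14, MMP15, MMP24, TIMP1, TIMP2, TIMP3, ADAM10 and ADAM17. The cells made a large amount of TIMP1, MMP14 and MMP1 mRNA and little of MMP24 and MMP7, while TIMP3 was listed at 0. None of the 9 genes that could be tested passed the test between sh-MFAP2 and control cells, which 0.273% of all genes tested passed. TIMP1 and MMP1 stood higher and MMP24, TIMP2 and ADAM17 lower in both sh-MFAP2 libraries than in both control libraries. Of all genes tested, 17.5% stood higher and 31.4% lower in this way.

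MMPs are zinc-dependent enzymes that cut collagens, laminins and other matrix proteins, some secreted and others anchored in the cell membrane. They are made as inactive precursors, and TIMPs block the active site of the mature enzymes. ADAM10 and ADAM17 are membrane proteases that cut growth factors, adhesion molecules and receptors from the cell surface. In carcinoma these enzymes are studied for their part in invasion and in the release of growth factors, and MFAP2 is a glycoprotein of the microfibrils of the matrix.

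AGS is a cell line from a human gastric adenocarcinoma. Sequencing gave 4 RNA libraries, namely 2 (sh-MFAP2) of AGS cells whose shRNA targets MFAP2 and 2 (control) of AGS cells with a scrambled shRNA, each group numbered 1 and 2. The titles of the control samples read only control, and the scrambled shRNA is named in the methods of the study. There, both shRNAs were delivered by lentivirus and stable cells were selected with puromycin, so control cells of that kind shared the vector and the drug. The sample titles name a single shRNA, although the descriptions could be read as a pair of them, and nothing states that the replicates were separate cultures, so p-values measure only the spread between these libraries, which may be technical. In bulk RNA, fewer cells that express a gene and less of its mRNA per cell cannot be told apart.

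Values are FPKM, that is, fragments scaled by feature length and by library depth. Depth is not given. The step between low values implied 54800000 to 75000000 reads per library, control replicate 2 being the deepest. The target, MFAP2, had 0 FPKM in each sh-MFAP2 library and 0.0116 and 0.0138 FPKM in the controls, about 2.01 and 3.02 inferred reads, which is too little to check the labels. By other measures, the paper reported MFAP2 protein in AGS cells by western blot, and its knockdown by western blot and quantitative PCR. Of 6 epithelial markers, 5 had a mean of at least 1 FPKM, with a summed level of 1732 to 1982 FPKM, although CLDN4 did so through sh-MFAP2 replicate 1 alone (47.1 FPKM, against 0.0151, 0.291 and 0.551 FPKM in the others). Of 13 markers of fibroblasts, endothelium and leukocytes, 2 reached 1 FPKM (COL1A1 and CD68), and the summed level was 5.31 to 5.57 FPKM in sh-MFAP2 libraries and 12.2 to 12.3 FPKM in controls.

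**Figure D1:**
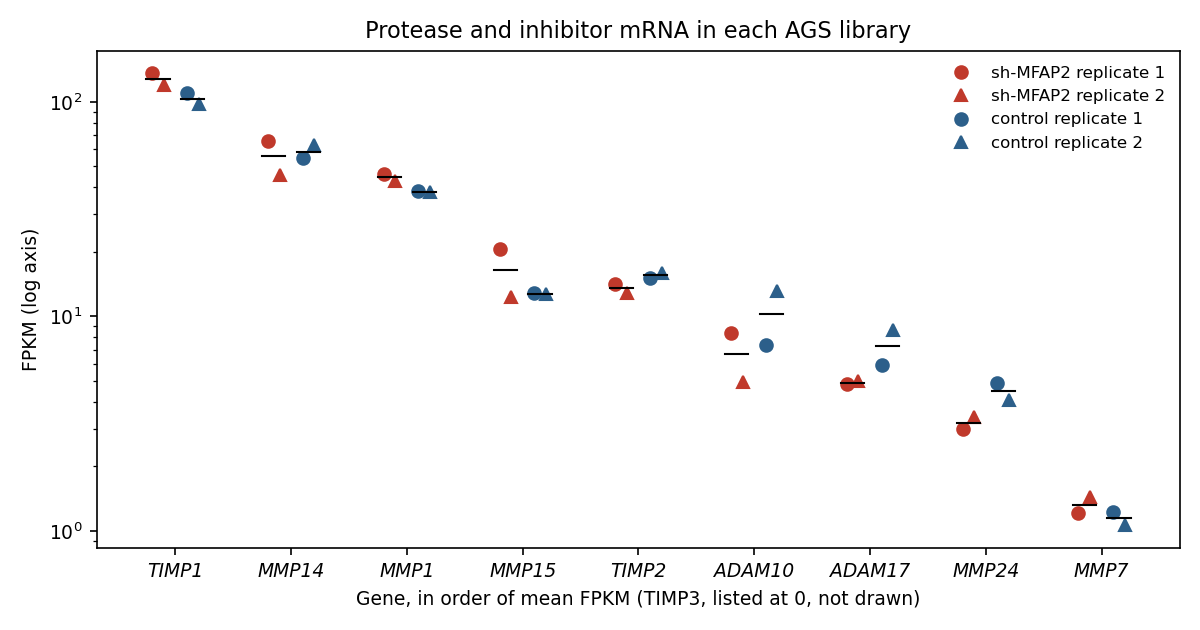
FPKM (log axis) of the 9 genes listed above 0, in order of mean FPKM, in each of the 4 libraries. Red marks are sh-MFAP2 and blue marks control, circles replicate 1 and triangles replicate 2, and black lines the group means. TIMP1 lay between 97.2 and 136 FPKM, MMP7 between 1.06 and 1.44 FPKM, and the libraries of ADAM10 spread most.

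The first question was how much of each mRNA the cells held. By mean FPKM over the 4 libraries the order was TIMP1 (115.5), MMP14 (57.2), MMP1 (41.3), MMP15 (14.6), TIMP2 (14.5), ADAM10 (8.46), ADAM17 (6.09), MMP24 (3.83), MMP7 (1.235) and TIMP3, listed at 0. The ranges of TIMP1 and MMP14, of MMP1 and MMP15, and of MMP24 and MMP7 did not overlap. The ranges overlapped for MMP14 and MMP1, TIMP2 and ADAM10, and ADAM17 and MMP24, although the order held in 4 of 4 libraries for each pair. ADAM10 stood above ADAM17 in 3 of 4 libraries, and MMP15 above TIMP2 in 1 of 4, so these neighbours were not separated. The gene values rest on one fixed gene length, which exceeds that of the main transcript for some genes (for TIMP1, 1541 against 892 bases). On the scale of summed transcript FPKM, TIMP1 had a mean of 201.4, MMP7 of 2.54 and ADAM10 of 13.2, and TIMP2 (16.2) passed MMP15 (15.2), while the rest of the order held.

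Before the single genes, the spread sets what could be seen. Called genes had p under 0.01 and Benjamini-Hochberg adjusted p under 0.05 in limma on log2(FPKM + 1), over the 9873 genes whose mean reached 1 FPKM. Of these genes, 27 (0.273%) were called, and 0 of the 9 genes of the set that were tested. At an unadjusted p under 0.05 in limma the background was 12.3%, and again 0 of the 9. The sh-MFAP2 libraries both exceeded both controls for 17.5% of all genes and for 2 of the 9 genes, and lay below both controls for 31.4% of all genes and for 3 of the 9. The other 4 genes overlapped between groups. The median log2 fold change, sh-MFAP2 minus control, was -0.09 over the 9 genes and -0.05 over all genes tested. The median gap between replicates on the log2 scale was 0.147 in sh-MFAP2 and 0.169 in control cells for the set, against 0.204 and 0.113 for all genes.

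The secreted MMPs come first. MMP1 (ENSG00000196611) is the interstitial collagenase, which cuts fibrillar collagens, and lies at chr11:102789920-102798160 on the minus strand of GRCh38, where GENCODE gives it 10 exons. Given here and for each gene with replicate 1 first, its level was 46.3 and 42.8 FPKM under sh-MFAP2 against 38.3 and 37.8 FPKM under the scrambled shRNA. The groups did not overlap, sh-MFAP2 being the higher. The log2 fold change was 0.22 (SE 0.11, 95% interval -0.08 to 0.53), with an adjusted p of 0.471 in limma. The gap between the groups was larger than that between replicates, but it did not pass the test.

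MMP7 (ENSG00000137673), matrilysin, is a small MMP without the C-terminal hemopexin domain of most others and is typical of epithelial cells. It lies near MMP1 at chr11:102520508-102530753 on the minus strand. The values were 1.21 and 1.44 FPKM under sh-MFAP2 against 1.23 and 1.06 FPKM under the scrambled shRNA, and the groups overlapped. These rest on 158 to 178 inferred reads a library, with a counting error of up to 7.94%, the largest of the set. A log2 fold change of 0.11 (SE 0.12) had an adjusted p of 0.683 in limma, and ran from 0.0444 without sh-MFAP2 replicate 2 to 0.185 without sh-MFAP2 replicate 1. RefSeq promoters (GRCh38.p14) were at hand for 8 genes of the set, and MMP1 and TIMP2 had no entry. Motifs were sought on both strands in the 250 bases before the start. Of the 8, MMP7 was the one that held the AP-1 motif TGANTCA, found in 6.57% of 35116 promoters. It was also the one with TATAAA (10.7% of promoters), and the one of the 8 without the GC box GGGCGG (42.6%). Its promoter is shown for that contrast, chosen after these counts were seen, from 130 to 11 bases before the RefSeq start (chr11:102530758-102530877, minus strand), with the AP-1 motif at -67 and the TATA motif at -30 in capitals.
MMP7 promoter: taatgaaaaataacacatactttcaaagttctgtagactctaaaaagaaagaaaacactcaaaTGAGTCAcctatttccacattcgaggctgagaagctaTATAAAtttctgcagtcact
The 250 bases before the start held 3 CpG and 33.6% G and C, against medians of 11 CpG and 58.0% over all promoters. Such a match describes the letters and not a bound factor.

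Among membrane MMPs, MMP14 (ENSG00000157227, MT1-MMP) is a collagenase of the cell surface and an activator of proMMP2. It lies at chr14:22836557-22849027 on the plus strand. MMP14 had 66.0 and 45.6 FPKM with the MFAP2 shRNA and 54.5 and 62.8 FPKM with the control shRNA. The sh-MFAP2 libraries were the highest and the lowest of the 4, and the log2 fold change was -0.09 (SE 0.23, 95% interval -0.74 to 0.56, adjusted p 0.873 in limma). Without sh-MFAP2 replicate 2 the log2 fold change was 0.17, and without control replicate 2 it was 0.00964, so its sign rested on single libraries.

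MMP15 (ENSG00000102996, MT2-MMP), a relative of MMP14 in the membrane, lies at chr16:58025566-58046901 on the plus strand. The values were 20.7 and 12.3 FPKM under sh-MFAP2 against 12.8 and 12.7 FPKM under the scrambled shRNA. Only sh-MFAP2 replicate 1 stood apart, and the other 3 libraries lay close together. The log2 fold change of 0.31 (SE 0.28, adjusted p 0.642 in limma) became -0.0503 without that library.

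MMP24 (ENSG00000125966, MT5-MMP) is a membrane MMP best known from the nervous system, and lies at chr20:35226654-35277000 on the plus strand. It had 2.97 and 3.40 FPKM with the MFAP2 shRNA and 4.87 and 4.06 FPKM with the control shRNA. The groups did not overlap, sh-MFAP2 being the lower. A log2 fold change of -0.38 (SE 0.14, 95% interval -0.77 to 0.00148) was found, with p 0.0505 and an adjusted p of 0.406 in limma, the smallest p and adjusted p of the set. MMP24OS, on the opposite strand with exons that overlap those of MMP24, had 1.55, 2.65, 1.83 and 1.98 FPKM in the same order. The sources used here do not give strand-specific counting, so reads of the pair cannot be told apart.

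Of the inhibitors, TIMP1 (ENSG00000102265) is secreted and inhibits most soluble MMPs but MMP14 poorly. It lies at chrX:47582313-47586789 on the plus strand, inside SYN1 on the other strand. TIMP1 had 136 and 120 FPKM under sh-MFAP2 against 109 and 97.2 FPKM under the scrambled shRNA. Controls were lower without overlap, and the log2 fold change was 0.30 (SE 0.14, 95% interval -0.08 to 0.69, adjusted p 0.45 in limma).

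TIMP2 (ENSG00000035862) inhibits MMP14 and also bridges MMP14 and proMMP2 during activation. It lies at chr17:78852977-78925387 on the minus strand. Its values of 14.1 and 12.9 FPKM in sh-MFAP2 libraries were below those of 15.1 and 15.9 FPKM in controls. Its log2 fold change was -0.19 (SE 0.11, 95% interval -0.50 to 0.12, adjusted p 0.522 in limma), opposite in sign to that of TIMP1.

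TIMP3 (ENSG00000100234) is bound to the matrix and is the TIMP that inhibits ADAM17. It lies at chr22:32801701-32863043 on the plus strand, inside SYN3 on the other strand, and was listed at 0 in all 4 libraries, so no test was made. In these tables an exact 0 need not mean a silent gene: 203 genes tested reached 5 FPKM in some library yet were under 10% of that maximum elsewhere, 70 of them at exactly 0 in at least 1 library, though no gene of the set was among the 203. The promoter of TIMP3 is known as a site of CpG methylation in cancers. Methylation was not measured here, and the sequence is shown for its CpG content beside that of MMP7, from 130 to 11 bases before the RefSeq start (chr22:32801575-32801694, plus strand), with CpG in capitals.
TIMP3 promoter: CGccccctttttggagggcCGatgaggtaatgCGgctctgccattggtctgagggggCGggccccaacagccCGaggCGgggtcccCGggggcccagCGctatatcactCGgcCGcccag
The 250 bases before the start held 26 CpG and 72.4% G and C. Counts near this were also found for expressed genes of the set, with 31 CpG for MMP15 and ADAM17 and 25 for MMP24 and ADAM10, while TIMP1 had 12 and MMP14 had 7.

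The sheddases had the lowest log2 fold changes of the set. ADAM10 (ENSG00000137845), the main sheddase of Notch receptors and cadherins, lies at chr15:58588807-58749978 on the minus strand. Its level was 8.35 and 4.96 FPKM with the MFAP2 shRNA and 7.38 and 13.1 FPKM with the control shRNA. Sh-MFAP2 replicate 2 was low and control replicate 2 high, while sh-MFAP2 replicate 1 exceeded control replicate 1, so that the groups overlapped. The log2 fold change was -0.545 (SE 0.38, 95% interval -1.61 to 0.52, adjusted p 0.569 in limma), and ran from -0.922 to -0.168 as each library was left out. The replicates differed 1.68-fold in sh-MFAP2 and 1.78-fold in control cells, the widest gap of the set in controls.

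ADAM17 (ENSG00000151694), also called TACE, releases TNF and several ligands of the EGF receptor, and lies at chr2:9488486-9556732 on the minus strand. Its level was 4.82 and 4.996 FPKM under sh-MFAP2 against 5.91 and 8.62 FPKM under the scrambled shRNA. Controls were higher without overlap, and control replicate 2 was again the highest. The log2 fold change was -0.46 (SE 0.20, 95% interval -1.03 to 0.10), with an adjusted p of 0.437 in limma. Without control replicate 2 it was -0.226, and without control replicate 1 it was -0.703. IAH1, whose exons overlap ADAM17 on the opposite strand, had 6.06 to 6.83 FPKM with no separation of the groups.

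**Figure D2:**
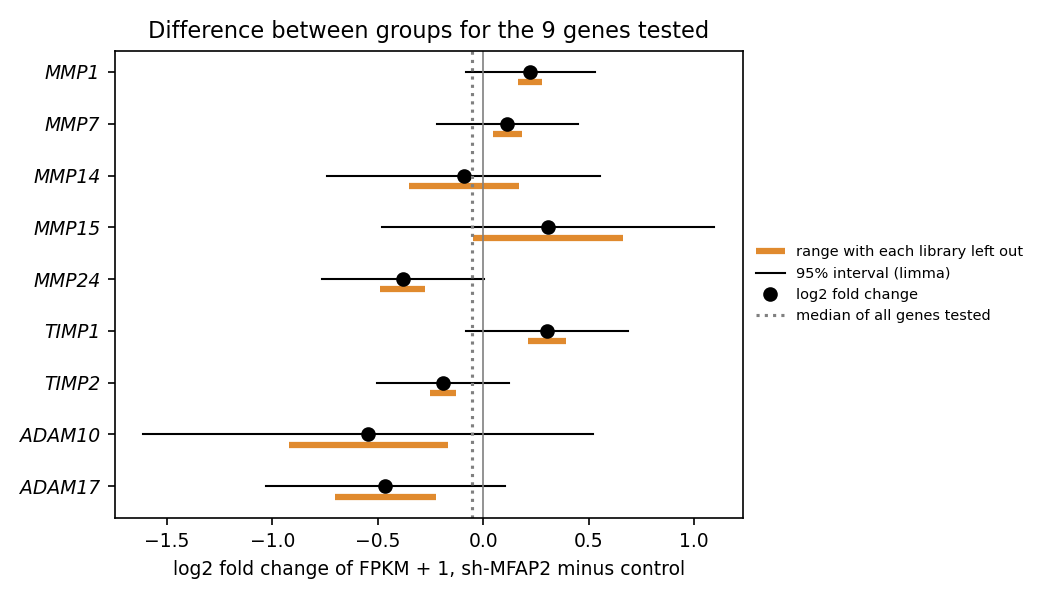
Log2 fold change of FPKM + 1, sh-MFAP2 minus control, for the 9 genes tested. Points are estimates, black lines 95% intervals from limma, orange bars the range as each library was left out, and the dotted line the median of all genes tested. Every interval includes 0, that of MMP24 by the smallest margin, and the orange bars of MMP14 and MMP15 cross 0.

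The genes whose profile over the 4 libraries was nearest to that of ADAM10, the gene of the set with the largest absolute log2 fold change, were KCTD3, SNX27 and SEPT11. Their distances on centred log2(FPKM + 1) were 0.155, 0.164 and 0.169. KCTD3, for example, had 13.1 and 9.06 FPKM with the MFAP2 shRNA and 12.4 and 23.7 FPKM with the control shRNA. All 3 were, like ADAM10, highest in control replicate 2 and lowest in sh-MFAP2 replicate 2, which follows from the way they were chosen.

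Fold changes over all genes moved with the length of the main transcript. Their median was 0.11 for 892 genes of up to 1000 bases and -0.19 for 508 genes longer than 8000 bases. TIMP1 (892 bases), MMP7 (1125) and MMP1 (1970) were the shortest of the set and had positive values, but so did MMP15 (4250 bases), whose length class of 4000 to 8000 bases had a median of -0.15. ADAM10, at 11431 bases, was the longest. Among genes longer than 8000 bases, the median deviation from the gene's mean was 0.137 in control replicate 2 and 0.0802 in control replicate 1, against -0.111 and -0.0739 in sh-MFAP2 replicates 1 and 2. Once the median of each length class had been removed in each library, an alternative chosen after seeing the data, the log2 fold change was -0.344 for ADAM10, -0.312 for ADAM17 and 0.207 for TIMP1. All 9 kept their sign and none was called. TIMP1 then overlapped between groups, while MMP15 and MMP7 joined MMP1 above both controls, 3 of 9 genes against 23.0% of all genes. MMP24, TIMP2 and ADAM17 remained below both controls, 3 of 9 against 23.9%. The part of RNA length in these results was not tested beyond that.

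**Figure D3:**
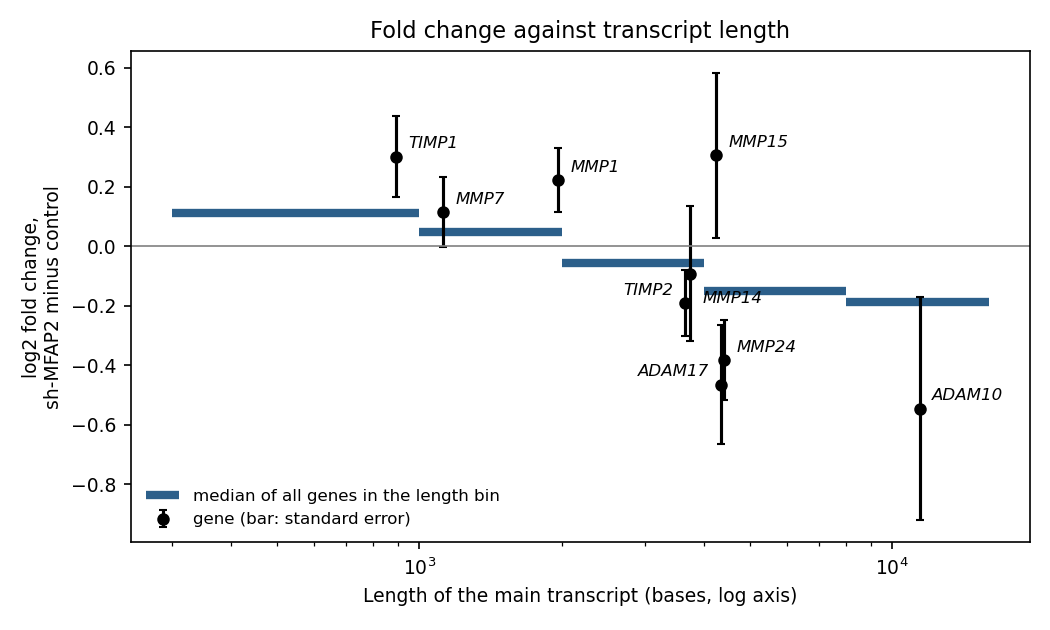
Log2 fold change, sh-MFAP2 minus control, against the length of the main transcript in bases (log axis) for the 9 genes tested, with standard errors. Blue lines are medians of all genes in 5 length classes, drawn to arbitrary outer ends for the first and the last. The medians run from 0.11 in the shortest class to -0.19 in the longest, and TIMP1 and ADAM10 lie near the ends.

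The transcript table asked whether a change of isoform lay behind the gene values. It held 43 transcripts of the 10 genes, 11 of which had a mean of at least 1 FPKM. Of all 22312 transcripts tested, 0 were called in limma (0.0%) and 1704 (7.64%) had an unadjusted p under 0.05. Of the 11, 0 passed either limit. In 8 of the 9 expressed genes a single transcript was tested. The main transcript took 93.9% to 100% of summed transcript FPKM for every expressed gene but ADAM10, where the share was 90.9% and 77.6% in sh-MFAP2 and 87.4% and 91.9% in control libraries. Sh-MFAP2 replicate 2, where ADAM10 was lowest, thus also had the lowest share of the transcript of 11431 bases. TIMP1 was the gene with 3 transcripts tested, led by ENST00000218388 with 231 and 203 FPKM under sh-MFAP2 and 186 and 165 FPKM in controls.

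Because TIMPs bind MMPs in a fixed ratio, sums and ratios within each library were compared. The 5 MMPs summed to 137.2 and 105.5 FPKM under sh-MFAP2 against 111.6 and 118.4 FPKM under the scrambled shRNA. The 3 TIMPs summed to 149.9 and 132.4 FPKM in sh-MFAP2, above 124.6 and 113.2 FPKM in controls. TIMP1 made up 90.6% and 90.3% of the TIMP sum in sh-MFAP2 and 87.8% and 85.9% in control libraries, and MMP14 made up 43.2% to 53.1% of the MMP sum.

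The ratio of TIMPs to MMPs was 1.09 and 1.26 in sh-MFAP2 and 1.12 and 0.956 in control libraries. The groups overlapped, with a difference of 0.18 on the log2 scale and p 0.667 by a two-sided exact permutation test, for which 0.333 is the smallest p that 2 against 2 libraries allow. TIMP2 over MMP14, partners in one complex, was 0.214 and 0.283 in sh-MFAP2 against 0.278 and 0.254 in controls (log2 difference -0.11). ADAM17 over ADAM10 was 0.578 and 1.01 against 0.8005 and 0.656 (log2 difference 0.07). Both of these ratios overlapped between groups, each with p 1.0 in the same exact permutation test. As each library was left out, the log2 differences ran from 0.0701 to 0.293 for TIMPs over MMPs, from -0.311 to 0.0917 for TIMP2 over MMP14 and from -0.325 to 0.474 for ADAM17 over ADAM10. The level of these ratios depends on the gene lengths used: on summed transcript FPKM, TIMPs over MMPs was 1.65 and 1.90 in sh-MFAP2 and 1.66 and 1.41 in control libraries, again with overlap, and the log2 difference of ADAM17 over ADAM10 was -0.00599.

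Other members of the families had low levels, apart from ADAM9 and ADAM15. Of 20 other MMPs, TIMPs and the MMP inhibitor RECK, 0 had a mean of 1 FPKM, 6 were listed at 0 in all libraries, and RECK was the highest at 0.848 FPKM. The set was chosen with earlier results of these data known, so the low levels of the rest may follow from that choice. Of 31 other ADAM and ADAMTS genes, 2 were tested and 0 called. ADAM9, a membrane ADAM of broad expression, had 58.2 and 55.2 FPKM with the MFAP2 shRNA and 72.5 and 76.1 FPKM with the control shRNA, so that it stood above ADAM10 and ADAM17 in each. Its groups did not overlap (log2 fold change -0.39, adjusted p 0.379 in limma). ADAM15, named because it was the other gene tested, had 37.5 and 24.9 FPKM against 23.7 and 25.3 FPKM, and its groups overlapped.

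Proteins that activate or bind the proteases form the next list. Of 19 genes, 16 were tested and 0 called, with 3 whose groups were separated upward and 4 downward, against 17.5% and 31.4% of all genes. The median log2 fold change of the list was 0.09, and -0.0438 without sh-MFAP2 replicate 1. FURIN, the proprotein convertase that removes the prodomain of MMP14 and of ADAM precursors, had 15.4 and 14.4 FPKM under sh-MFAP2 against 39.3 and 43.9 FPKM under the scrambled shRNA. The groups stood far apart relative to their replicates, with a log2 fold change of -1.42 (SE 0.12) and p 3.9e-04, but the adjusted p of 0.0875 in limma did not reach the threshold. TSPAN15, a tetraspanin that binds ADAM10, had 42.2 and 36.3 FPKM against 17.5 and 29.6 FPKM in controls (log2 fold change 0.76, adjusted p 0.415 in limma). Other tetraspanins of the list did not all go this way. TSPAN14 had 5.29 and 2.81 FPKM, below 6.17 and 7.57 FPKM in controls. TSPAN17 overlapped, with 11.6 and 5.37 FPKM against 6.22 and 6.385 FPKM. RHBDF1 and RHBDF2 code for iRhoms, which carry ADAM17 to the cell surface. RHBDF1 had 8.22 and 6.63 FPKM against 7.36 and 7.33 FPKM and overlapped. RHBDF2 had 2.10 and 1.47 FPKM, higher than 1.29 and 1.27 FPKM in controls.

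Surface proteins cut by ADAM10 and ADAM17 formed a further list. Of 26 genes, 17 were tested, 0 were called, and 4 were separated upward and 6 downward, against 17.5% and 31.4% of all genes. Over the list the median log2 fold change was -0.08. SDC4, a heparan sulfate proteoglycan of focal adhesions, had 117 and 104 FPKM with the MFAP2 shRNA and 30.0 and 37.6 FPKM with the control shRNA (log2 fold change 1.69, SE 0.17, adjusted p 0.132 in limma). ALCAM, an adhesion molecule of the immunoglobulin family, had 5.02 and 6.90 FPKM under sh-MFAP2 against 10.1 and 12.9 FPKM under the scrambled shRNA (log2 fold change -0.85, adjusted p 0.352 in limma). SDC4 and ALCAM were named as the largest rise and fall without overlap of this list, so their opposite directions follow from that choice. Neither passed the test.

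**Figure D4:**
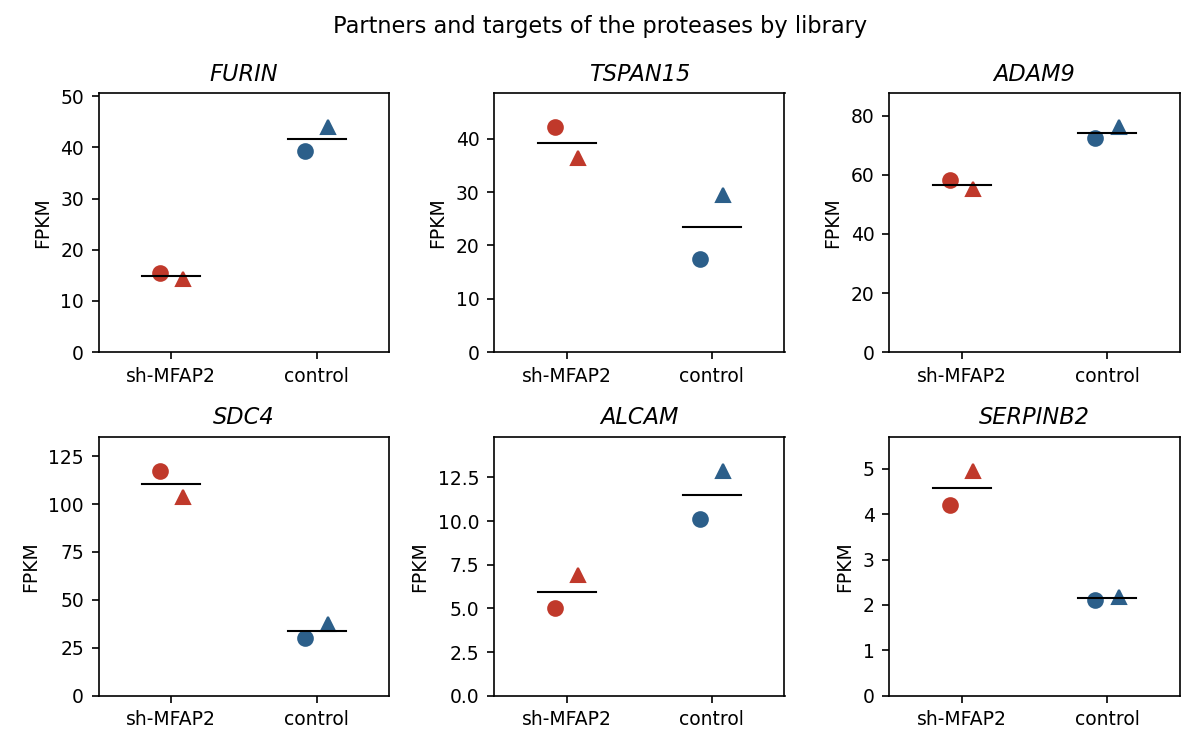
FPKM of 6 genes from the lists in sh-MFAP2 (red) and control (blue) libraries. FURIN and TSPAN15 are activators or partners of the proteases, SDC4 and ALCAM substrates, ADAM9 another ADAM and SERPINB2 a gene of the plasminogen system. Circles mark replicate 1, triangles replicate 2 and black lines group means. Each vertical axis starts at 0. The 6 genes were chosen among those whose groups do not overlap, so the separation in each panel follows from that choice. The gap is widest for SDC4 and FURIN, and none of the 6 genes passed the adjusted threshold.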

How the data were processed

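The authors deposited a gene table and a transcript table with 1 value per library, taken here as FPKM from their steps and totals. Per the labels' processing notes the build was hg38, and the aligner, the program that gave the values and the annotation are not given in the sources used here. The other column used from the deposited files was transcript length. Samples were grouped by their labels. Features whose mean reached 1 FPKM entered limma 3.58.1 (R 4.3.3; lmFit, then eBayes with trend) on the log2(FPKM + 1) scale, with Benjamini-Hochberg adjustment over all features tested. The fit was tested on simulated data. Whole steps covered just 58.2% to 59.1% of low values, too few to recover reads for a count test, and counting errors rest on inferred reads. Coordinates are from GENCODE 29 on GRCh38. The named genes were the 10 genes of the set, MFAP2, the largest rise and fall without overlap in each of 8 lists, and the 3 genes nearest to ADAM10. ADAM15, RECK, RHBDF1, RHBDF2, TSPAN14 and TSPAN17 were named after their values were seen. The set and the lists were chosen with earlier results of these data known. Same-numbered libraries did not deviate together (correlation -0.0572 over 9873 genes), so no block was used. Tables and figures were made with Python 3.11.15 and matplotlib 3.10.9.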

Additional observations from a re-analysis of the deposited data

How the results depend on the processing

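No gene of the set was called with no filter, quantile normalization, median of ratios, no trend or a pseudocount of 0.1. The same held for a higher filter at 5 FPKM (7 genes, without MMP7 and MMP24), sums of transcripts and the replicate block. It also held with length class medians removed, a run added after seeing the data. At a pseudocount of 0.1, MMP24 had an unadjusted p of 0.0461 in limma, and 1205 of all 9873 genes were under 0.05. When each library was left out, the lone library was assumed to vary like the other group, so just log2 fold changes are given. The signs of all but MMP14 and MMP15 held with each library left out. MMP14 ran from -0.354 to 0.17 and MMP15 from -0.0503 to 0.662. MMP14 turned to 0.17 without sh-MFAP2 replicate 2 and to 0.00964 without control replicate 2, and MMP15 to -0.0503 without sh-MFAP2 replicate 1. The median log2 fold change of the set ran from -0.251 (without sh-MFAP2 replicate 1) to 0.0444 (without sh-MFAP2 replicate 2). Genes called over the whole table were 6 with no filter, 9 at a mean of at least 5 FPKM and 0 with the replicate block. They were 46 at an adjusted p under 0.1 and 1214 at an unadjusted p under 0.05. Which of these choices matters was not tested. The replicate numbers were not taken to pair the libraries, since same-numbered libraries did not deviate together. With the block, 0 genes were called over the whole table, so none of the set or the lists could be. At an adjusted p under 0.1, 1 activator (FURIN) was called. At an unadjusted p under 0.05 in limma, 12.3% of all genes passed, and 0 of the 9 genes of the set. In the lists, 1 of 2 other ADAMs, 2 of 16 activators and 1 of 9 genes of the plasminogen system passed. So did 5 of 17 substrates of the sheddases, 1 of 14 matrix substrates and 2 of 2 markers of other cell types. The median of the sheddase substrates, -0.08, was 0.0963 with length class medians removed and 0.0087 with quantile normalization, so its sign depends on the scaling. With 2 libraries a group, differences of the size of MMP1, TIMP1, MMP24 or ADAM17 did not pass the test, and mRNA values give no measure of protease activity.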

Other observations

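The plasminogen system, which produces the plasmin that can activate secreted MMP precursors, was expressed in part. Of 15 genes, 9 were tested and 0 called, but 5 had both sh-MFAP2 libraries above both controls and 1 had both below, against 17.5% and 31.4% of all genes. The median log2 fold change was 0.19. Leaving out sh-MFAP2 replicate 2 gave 0.279 and leaving out control replicate 1 gave 0.133. It was 0.105 with quantile normalization, 0.243 with median of ratios, 0.133 at a mean of 5 FPKM and 0.0314 over 15 genes with no filter. SERPINB2, the plasminogen activator inhibitor of type 2, had 4.19 and 4.96 FPKM with the MFAP2 shRNA and 2.12 and 2.17 FPKM with the control shRNA (log2 fold change 0.82, adjusted p 0.238 in limma). SERPINB5, maspin, had 12.8 and 14.4 FPKM against 15.1 and 14.6 FPKM (log2 fold change -0.12, adjusted p 0.653 in limma). These too were named as the largest rise and fall without overlap of their list, which sets their opposite directions. Neither passed the test.

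Of 29 matrix proteins that MMPs cut, 14 were tested and 0 called, with 1 separated upward and 3 downward, against 17.5% and 31.4% of all genes. The median log2 fold change was 0.04, from -0.187 without sh-MFAP2 replicate 1 to 0.251 without sh-MFAP2 replicate 2. LAMB3, a chain of a laminin of the epithelial basement membrane, had 46.8 and 30.3 FPKM under sh-MFAP2 against 28.7 and 28.98 FPKM under the scrambled shRNA (log2 fold change 0.37, adjusted p 0.555 in limma). COL1A1, a chain of the collagen that MMP1 and MMP14 cut, had 2.27 and 2.07 FPKM against 4.36 and 4.92 FPKM (log2 fold change -0.83, adjusted p 0.221 in limma). COL1A1 is also a fibroblast marker, and CD68, a marker of macrophages that other cells express at low levels, had 3.13 and 3.12 FPKM against 7.85 and 7.20 FPKM (log2 fold change -1.05, adjusted p 0.133 in limma). The part of other cells in these values was not tested.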
